A study of Arabidopsis thaliana with 12 samples.

Results

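Natural antisense transcripts (NATs) are RNAs read from the strand opposite an annotated gene, over the same stretch of chromosome. The deposited table lists 32833 Arabidopsis thaliana genes, and 44 of them are described there as potential natural antisense genes that overlap a named locus. All 44 were taken by that wording, whatever their level. Of these, 42 had a normalized value of at least 1 in at least 3 libraries and entered the tests. The other 2, AT1G71828 opposite the co-receptor kinase gene SERK1 and AT5G45475 opposite AT5G45480, were at 0 in all 12 libraries. A total of 3 fragments over a group of 3 libraries would have given a mean value of 1.27 in hop heat and 1.43 in wt heat, beside 0.737 in hop control and 0.748 in wt control, which is the limit a count of 0 allows, for counting error only. In the RefSeq annotation of assembly TAIR10.1, AT5G45475 lies wholly within another NAT, AT5G45472, on the same strand. How fragments over both loci were counted is unknown, so for AT5G45475 a count of 0 sets no such limit.

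RNA was sequenced from seedlings 7 days old in 4 groups of 3 libraries: the hop1 hop2 hop3 triple mutant (hop) with its last 3 h at 38 °C (hop heat), wild-type Col-0 (wt) given the same heat (wt heat), hop under control conditions (hop control) and wt under control conditions (wt control). HOP proteins are co-chaperones that pass client proteins between HSP70 and HSP90. Whole seedlings were labelled as the material, so throughout, fewer cells of a type and less RNA per cell cannot be told apart. The labels name the mutant only by its genes, and do not say whether replicates were grown separately, so the p-values reflect the spread among libraries, which may be technical.

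An antisense transcript can act on the gene it faces in several known ways: transcription of one strand can hinder transcription of the other, both RNAs can pair into double strands that Dicer enzymes cut into small RNAs, and antisense transcription can change the chromatin over the shared locus. In Arabidopsis the antisense RNAs at the flowering repressor FLC and the NAT-derived small RNAs made under salt stress are well-studied cases. Sense and antisense transcripts at a locus can also change independently.

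Libraries held 26.1 to 38.7 M fragments, with group means of 35.3 ± 3.31 M in hop heat and 28.4 ± 1.37 M in wt heat, beside 31.9 ± 2.85 M in hop control and 29.8 ± 3.93 M in wt control (SD, n = 3 each). HOP2 averaged 7.07 ± 0.664 normalized fragments in hop control and 556 ± 76.5 in wt control, and HOP3 averaged 4.55 ± 4.7 in hop control and 80.7 ± 6.92 in wt control. HOP1 was at 596 ± 69.6 in hop control and 649.7 ± 98.6 in wt control, a difference that was not called (limma log2 fold change -0.12, adjusted p = 0.917). It was at 2068 ± 359 in hop heat and 1216 ± 197 in wt heat, where it was called higher in hop (0.76, adjusted p = 0.00869). A count over the whole gene does not show whether its product is intact, and hop here stands for the libraries so labelled. HOP2 reached 4718 ± 587 in hop heat and 8002 ± 657 in wt heat. All 3 leaf markers (RBCS1A, LHCB1.1, CA1) and all 4 root markers (COBL9, EXPA7, SCR, CASP1) were present, and the flower identity gene AP1 averaged under 1 normalized fragment in each group. The other flower gene, AP3, averaged 3.42 ± 1.68 in hop heat and 2.75 ± 2.2 in wt heat, beside 1.21 ± 0.797 in hop control and 0.477 ± 0.827 in wt control, and was called higher with heat in wt (limma log2 1.33, adjusted p = 0.0339). The seed storage gene CRA1 averaged 161 ± 97.3 in hop heat and 260.0 ± 225 in wt heat, beside 195 ± 165 in hop control and 34.3 ± 30.4 in wt control. The other seed storage gene, CRU3, averaged 16.5 to 34.9 over the groups (SD, n = 3 each). Their part in the results was not tested.

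All 44 locus names were found in the RefSeq annotation of assembly TAIR10.1, which gives 42 as long non-coding RNA, 1 as antisense RNA (AT2G31902) and 1 as non-coding RNA (AT5G45475). The build behind the authors' counts is not given in the sources used here, so positions come from looking up each locus name in TAIR10.1. The NAT loci lie on chromosomes 1 (14 loci), 2 (7), 3 (3), 4 (13) and 5 (7). In that annotation 41 of the 44 overlap their named partner on the opposite strand, by 158 to 9509 bases with a median of 1940 bases. The 3 that do not are AT1G74205 (named partner GDPD5), AT4G38932 (AT4G38930) and AT5G15022 (AT5G15030). AT4G27852 names both AT4G27850 and AT4G27860 and overlaps each. AT4G37553 names both AT4G37550 and AT4G37560 and overlaps only AT4G37560.

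Most of the overlapping NATs reach both ends of the reading frame they face. Exons of 24 of the 41 overlapping NATs lie opposite both the start and the stop codon of the partner, 8 reach only the start codon, 8 only the stop codon, and 1, AT1G71828, reaches neither. Not all of the 24 face every coding base between those codons. AT2G31902 faces 1641 of 4674 coding bases, AT3G57965 873 of 960 and AT5G38212 2008 of 2061. No intron is annotated in 25 of the 41. A gene annotated on the same strand overlaps 10 of the 44 NATs; among them AT5G45472 shares its strand with AT5G45475 and with the ends of 2 protein-coding genes, AT5G45469 and AT5G45490, so its fragments could be divided among these loci. The deposited table is named as stranded, while the strand setting of the counting is unknown, and sense and antisense values are reported here as the table assigns them.

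To show what the antisense reading of a gene looks like, the 60 bases of 4 NATs that face the first 60 coding bases of the partner follow, from RefSeq TAIR10.1 on the NAT's own strand, 5′ to 3′; the capitals CAT are the reverse complement of the partner's ATG start codon. AT4G28652 and AT2G37362 were the NATs called between hop and wt under heat in every setting tried, and AT5G45472 and AT2G19572 were among those that rose with heat.
AT4G28652, opposite PXL2, chr4:14147217-14147276, plus strand: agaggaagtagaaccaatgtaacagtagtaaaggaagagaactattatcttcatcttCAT
AT2G37362, opposite ABCG2, chr2:15675763-15675822, plus strand: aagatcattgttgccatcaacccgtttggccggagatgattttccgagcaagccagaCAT
AT5G45472, opposite AT5G45470, chr5:18424705-18424764, plus strand: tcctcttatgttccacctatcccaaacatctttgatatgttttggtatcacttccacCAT
AT2G19572, opposite CDA1, chr2:8471444-8471503, plus strand: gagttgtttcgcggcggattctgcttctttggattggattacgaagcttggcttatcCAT
The same stretch of PXL2 on its own, minus strand, starts with the codon in capitals.
PXL2, chr4:14147217-14147276, minus strand: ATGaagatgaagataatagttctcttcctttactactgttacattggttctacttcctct

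The NATs rested on few fragments. Levels are given as normalized fragments unless per kilobase is stated. The mean over the 12 libraries, in normalized fragments per gene with no correction for length, ranged from 0.902 to 785 among the 42 tested. Its median was 35.6 for the NATs and 165 over all 23827 tested genes, and 10 of the 42 NATs averaged below 10. Summed over the 44 loci, NAT signal was 3120 ± 75.5 normalized fragments in hop heat and 3053 ± 141 in wt heat, beside 4355 ± 28.1 in hop control and 4652 ± 184 in wt control (SD, n = 3 each). All 6 heat libraries lay below all 6 control libraries in this sum. AT4G38932, the NAT with the most fragments, made up 573 ± 31.3 of it in hop heat and 539 ± 68 in wt heat, beside 1026 ± 172 in hop control and 1001 ± 209 in wt control.

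More NATs were lower than higher under heat, in both genotypes. In hop, 24 of the 42 fell and 7 rose (limma, Benjamini-Hochberg adjusted p under 0.05 over all tested genes), so that 73.8% were called, against 68.5% of all tested genes. In wt, 24 fell and 4 rose, or 66.7%, against 69% of all tested genes. The share of NATs called was thus near that of all genes. By direction, 33.3% of all genes were called higher and 35.2% lower in hop, and 33.2% higher and 35.8% lower in wt. The median log2 fold change of the 42 NATs was -1.21 in hop and -0.97 in wt, beside -0.06 in hop and -0.08 in wt over all tested genes. The NAT AT1G74205 was at 0 in all wt heat libraries, and without it the wt median was -1.05. In the authors' deposited table, 6 NATs were higher and 24 lower in hop, and 4 higher and 23 lower in wt, at an adjusted p under 0.05. On the recovered fragments, edgeR called 7 NATs higher and 26 lower in hop (68.7% of all genes called) and 4 higher and 24 lower in wt (68%), and DESeq2 called 6 higher and 24 lower in hop (66%) and 4 higher and 23 lower in wt (68.6%).

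Replicates of heat and control did not overlap for 33 of the 42 NATs in hop (70.4% of all tested genes) and for 32 in wt (72.4%). Scaling by total fragments alone, in place of the deposited size factors, moved the median of all genes to -0.91 in hop and -0.88 in wt; relative to that shift the NAT medians were -1.21 in hop and -0.83 in wt. Under that scaling 31 NATs were called lower and 4 higher in hop, where 61.9% of all tested genes were lower and 13.1% higher. In wt, 31 were lower and 2 higher, where 61.6% of all genes were lower and 13.6% higher. For comparison, 262 tested rows that the table describes only as other RNA had 55 called higher and 92 lower in hop, with a median of -0.28, and 63 higher and 100 lower in wt, with a median of -0.30.

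The same NATs were mostly called in both genotypes. A fall was called in both for 23 NATs and a rise in both for 4, with 10 called in neither and none called in opposite directions. Of all tested genes, 68.5% were called in hop and 69% in wt. The share of all genes called in both is not given here, so whether the NATs differ from genes at large in this was not tested. AT1G20691, AT2G04852, AT4G39838 and AT5G15022 were called in hop alone and AT3G05932 in wt alone, but the difference between the 2 responses was called for none of these 5. The comparisons in hop and in wt used separate libraries. Each of the 23 falls was called lower under every alternative setting that tested it.

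**Figure D1:**
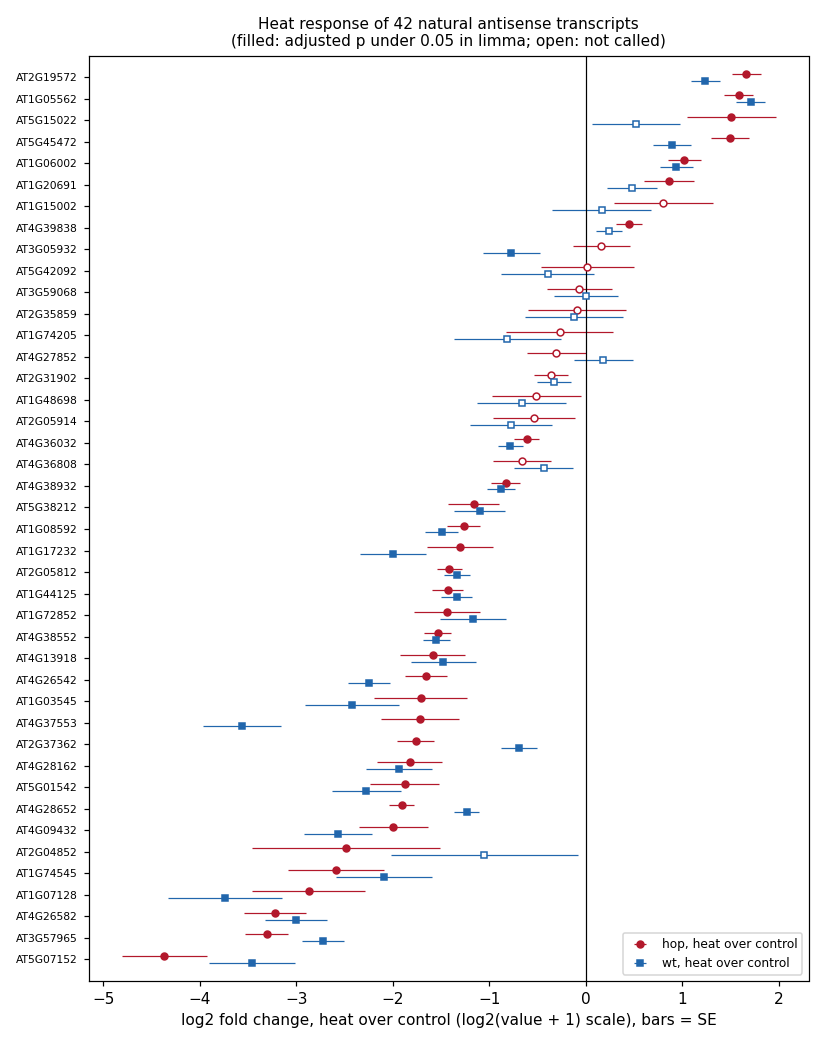
Log2 fold change of heat over control, on the log2(value + 1) scale, for the 42 tested NATs, with circles for hop and squares for wt, filled where limma's adjusted p was under 0.05 and bars showing the standard error. Most points lie left of 0 in both genotypes, from AT5G07152 at -4.37 in hop and -3.46 in wt, and the 4 NATs with filled symbols right of 0 in both genotypes are AT2G19572, AT1G05562, AT5G45472 and AT1G06002.

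Of 9 tested NATs whose partner is described as a kinase, phosphatase or receptor, 8 fell in hop and the same 8 fell in wt (35.2% of all tested genes were lower in hop and 35.8% in wt), with median log2 fold changes of -1.59 in hop and -1.49 in wt over the 9. These partner genes include PXL1 and PXL2, leucine-rich repeat receptor kinases related to the vascular receptor PXY, the receptor-like protein RLP50 and the lectin receptor kinase LECRK62. Of the 10 tested partner genes of that class, 7 were called lower in each genotype, beside the same shares of all genes, with medians of -1.14 in hop and -0.89 in wt.

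The largest of these falls was at AT5G07152, opposite a leucine-rich repeat kinase gene, AT5G07150. AT5G07152 had 1.33, 11.6 and 4.13 normalized fragments in hop heat and 11.9, 6.62 and 9.23 in wt heat, compared with 97.3, 122 and 109 in hop control and 92.2, 114 and 124 in wt control. Every heat library lay far below every control library, with log2 fold changes of -4.37 ± 0.44 in hop (SE; limma adjusted p = 4.86e-07) and -3.46 ± 0.44 in wt (adjusted p = 5.89e-06). Its partner AT5G07150 averaged 8.08 ± 3.29 in hop heat and 13 ± 2.95 in wt heat, beside 24.3 ± 1.74 in hop control and 26.5 ± 1.7 in wt control (SD, n = 3 each).

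AT4G26542, opposite the LRR receptor kinase gene AT4G26540, had 19.9, 20.3 and 23.7 in hop heat and 18.5, 18.2 and 11.9 in wt heat, beside 76.8, 66.5 and 64.3 in hop control and 88.5, 79.9 and 70.2 in wt control. AT5G01542, opposite LECRK62, had 7.95, 26.1 and 11.4 in hop heat and 9.25, 18.2 and 11.9 in wt heat, beside 56.4, 62.9 and 39.6 in hop control and 65.7, 66.4 and 63 in wt control. In both cases the heat and control libraries did not overlap in either genotype. Log2 fold changes were -1.27 in hop and -1.49 in wt for AT1G08592 opposite PXL1, and -1.30 in hop and -2.00 in wt for AT1G17232. They were -1.59 in hop and -1.48 in wt for AT4G13918 opposite RLP50, and -1.16 in hop and -1.10 in wt for AT5G38212. The member of this class that was not called, AT5G42092, averaged 5.61 ± 3.75 in hop heat and 5.84 ± 2.21 in wt heat, beside 4.62 ± 0.939 in hop control and 7.82 ± 1.83 in wt control (SD, n = 3 each), below 10 throughout.

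All 3 tested NATs whose partner was classed as transport, by words in its description, fell in both genotypes. Of all tested genes, 35.2% fell in hop and 35.8% in wt. AT4G26582 lies opposite OPT5, an oligopeptide transporter gene that was itself at or near 0. It had 6.63, 8.71 and 3.1 in hop heat and 11.9, 8.27 and 11.9 in wt heat, beside 51.2, 59.4 and 77.3 in hop control and 71.2, 97.1 and 112 in wt control. The groups did not overlap, and the log2 fold changes were -3.22 ± 0.32 in hop (SE; limma adjusted p = 2.73e-07) and -3.01 ± 0.32 in wt (adjusted p = 6.05e-07). SCAMP2 is described as a secretory carrier-associated membrane protein, and entered this class by the word carrier. AT1G03545, opposite SCAMP2, had log2 fold changes of -1.71 in hop and -2.43 in wt. AT2G37362, opposite ABCG2, an ABC transporter involved in suberin formation, had -1.76 in hop and -0.69 in wt.

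Of the 29 tested NATs whose partners fall in no receptor, kinase, transport or chloroplast class, 13 fell and 7 rose in hop, and 13 fell and 4 rose in wt. Over all tested genes, 35.2% fell and 33.3% rose in hop, and 35.8% fell and 33.2% rose in wt. No partner was described as a heat shock protein, a chaperone or a transcription regulator. AT3G57965 faces AT3G57970, a gene with an ENT domain, and had 15.9, 11.6 and 20.6 in hop heat and 25.1, 21.5 and 26.4 in wt heat, beside 137, 177 and 180.0 in hop control and 134, 180.0 and 188 in wt control. Its log2 fold changes were -3.31 ± 0.22 in hop (SE; limma adjusted p = 2.79e-09) and -2.72 ± 0.22 in wt (adjusted p = 2.78e-08), while its partner had no more than 1.83 normalized fragments in any library.

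AT1G07128, opposite STN1, a subunit of the telomere-capping CST complex, had 3.98, 13.1 and 6.19 in hop heat and 0, 6.62 and 3.95 in wt heat, beside 52.1, 54.5 and 66.3 in hop control and 41.1, 39.3 and 52.3 in wt control. The heat libraries were all below the control libraries, and the log2 fold changes were -2.87 in hop and -3.74 in wt for the NAT and -0.60 in hop and -0.61 in wt for STN1. AT4G09432, opposite a TIR-NBS-LRR disease resistance gene, and AT4G28162, opposite a hydroxyproline-rich glycoprotein gene, also fell in both genotypes. Their log2 fold changes were -1.99 in hop and -2.57 in wt for AT4G09432, and -1.82 in hop and -1.94 in wt for AT4G28162. Only 119 of the 2281 exon bases of AT4G09432 face exons of its partner.

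Among the 4 NATs with the fewest fragments of those that fell in hop, AT1G74545 and AT4G37553 had wide counting intervals. AT1G74545, opposite the cytochrome P450 gene CYP98A8, had 1 fragment in hop heat and 30 in hop control, a ratio of 0.057 with an exact 95% counting interval of 0.0014 to 0.343. AT4G37553 had 1 fragment in wt heat and 65 in wt control, a ratio of 0.0299 with an interval of 0.000746 to 0.173. The means over the 12 libraries were 3.26 (AT1G74545), 6.23 (AT2G04852), 8.07 (AT4G37553) and 13.3 (AT1G03545) normalized fragments.

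Several of the NATs with the most fragments also fell, with small errors. AT4G38932 had 594, 588 and 537 in hop heat and 486, 615 and 514 in wt heat, beside 1224, 929 and 924 in hop control and 1200.1, 783 and 1021 in wt control, with log2 fold changes of -0.83 ± 0.15 in hop (SE; limma adjusted p = 0.000146) and -0.88 ± 0.15 in wt (adjusted p = 8.42e-05). Its named partner AT4G38930, a ubiquitin fusion degradation gene that it does not overlap in TAIR10.1, was not called in either genotype (log2 fold change 0.08 in hop and 0.25 in wt). AT2G05812, opposite an ARM repeat gene, was at -1.41 in hop and -1.33 in wt on the same scale. AT4G38552, opposite a phospholipase-like gene, was at -1.54 in hop and -1.55 in wt, and AT4G36032, opposite the armadillo repeat gene ARO3, at -0.61 in hop and -0.78 in wt.

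The 4 NATs that rose in both genotypes face 3 genes for enzymes of small-molecule metabolism and a gene of unknown function. AT2G19572 lies opposite CDA1, the cytidine deaminase of pyrimidine salvage. It had 311, 332 and 279 in hop heat and 227, 233 and 209.6 in wt heat, beside 109, 107 and 75.4 in hop control and 104, 85.4 and 93.1 in wt control. Heat and control libraries did not overlap, and it rose by log2 1.66 ± 0.15 in hop (SE; limma adjusted p = 1.02e-07) and 1.24 ± 0.15 in wt (adjusted p = 2.74e-06).

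AT1G05562 and its partner UGT75B1, a UDP-glucosyltransferase, have the same annotated extent. AT1G05562 had 534, 479 and 522 in hop heat and 464, 584 and 378 in wt heat, beside 191, 179 and 143 in hop control and 149.7, 126 and 153 in wt control, and rose by log2 1.58 ± 0.15 in hop (SE; limma adjusted p = 2.14e-07) and 1.71 ± 0.15 in wt (adjusted p = 9.16e-08). AT1G06002 lies opposite UGT89C1, a flavonol 7-O-rhamnosyltransferase, and had 113, 118 and 103 in hop heat and 95.2, 111 and 79.1 in wt heat, beside 47.8, 58 and 57.2 in hop control and 48.4, 45.5 and 52.3 in wt control. Its rise of log2 1.02 in hop and 0.94 in wt became 0.11 in hop and 0.07 in wt, not called, when libraries were scaled by total fragments alone. Relative to the median of all genes under that scaling these are 1.02 in hop and 0.95 in wt.

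AT5G45472, opposite AT5G45470, a gene of unknown function with a DUF594 domain, had 367, 425 and 386 in hop heat and 375, 333 and 345 in wt heat, beside 95.6, 157 and 177 in hop control and 149.7, 224 and 199.8 in wt control. All heat libraries were above all control libraries, and it rose by log2 1.49 ± 0.20 in hop (SE; limma adjusted p = 6.35e-06) and 0.89 ± 0.20 in wt (adjusted p = 0.000829). Scaled by total fragments alone it was at 0.57 in hop and at 0.01, not called, in wt, or at 1.48 in hop and 0.89 in wt relative to the median of all genes there.

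Because these 4 NATs rose together, the 300 bases from 250 before to 50 after each annotated start were searched for GAANNTTC, the core of the heat shock element, on both strands (the motif is its own reverse complement). Of the 4, AT1G06002 held 2 matches, both reading GAAAATTC, and AT2G19572, AT5G45472 and AT1G05562 held none. Among all 37897 gene starts of TAIR10.1, 11.4% held the motif, and 9 of the 44 NATs did (20.5%). Besides AT1G06002, these included AT1G07128, AT1G17232, AT1G74545, AT2G05812, AT4G13918 and AT4G38552, which fell in both genotypes. The others were AT1G20691, called higher in hop alone, and AT1G74205, called in neither genotype. The 3-unit forms, GAANNTTC followed by NNGAA or preceded by TTCNN, were in 0.472% of all windows and in 0 of the 44, and TATAAA on either strand was in 48.8% of all windows and in 23 of the 44 (52.3%). A match is a description of the letters only. The windows of 3 of these NATs are shown from RefSeq TAIR10.1, each on the NAT's strand, with any match of GAANNTTC in capitals.
AT1G06002, chr1:1820004-1820303, plus strand: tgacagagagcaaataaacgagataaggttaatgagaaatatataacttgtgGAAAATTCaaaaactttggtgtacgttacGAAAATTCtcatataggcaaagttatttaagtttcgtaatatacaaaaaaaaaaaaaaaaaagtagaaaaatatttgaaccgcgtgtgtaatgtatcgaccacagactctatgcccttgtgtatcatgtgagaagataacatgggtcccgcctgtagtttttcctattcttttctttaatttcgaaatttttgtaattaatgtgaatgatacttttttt
AT2G19572, chr2:8469994-8470293, plus strand: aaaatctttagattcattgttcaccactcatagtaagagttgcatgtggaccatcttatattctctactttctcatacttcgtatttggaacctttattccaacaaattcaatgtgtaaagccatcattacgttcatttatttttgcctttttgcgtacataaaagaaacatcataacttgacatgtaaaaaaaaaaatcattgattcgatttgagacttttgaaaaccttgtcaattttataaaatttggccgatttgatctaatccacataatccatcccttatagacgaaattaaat
AT5G45472, chr5:18421299-18421598, plus strand: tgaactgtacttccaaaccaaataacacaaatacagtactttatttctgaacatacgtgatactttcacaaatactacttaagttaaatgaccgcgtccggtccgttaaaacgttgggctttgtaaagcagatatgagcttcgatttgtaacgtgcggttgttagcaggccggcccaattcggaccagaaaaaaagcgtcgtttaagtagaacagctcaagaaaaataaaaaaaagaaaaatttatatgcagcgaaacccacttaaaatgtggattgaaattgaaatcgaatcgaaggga

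The NATs called in 1 genotype had smaller or less steady changes. AT4G39838, opposite AT4G39840, had 136, 178 and 176 in hop heat and 126, 116 and 116 in hop control, a rise of log2 0.45 (limma adjusted p = 0.00857), and 182, 167 and 163 in wt heat and 152, 129 and 153 in wt control (0.24, adjusted p = 0.129). Scaled by total fragments alone, the log2 fold changes of AT4G39838 were -0.47 in hop and -0.64 in wt, which relative to the median of all genes under that scaling is 0.44 in hop and 0.25 in wt. In hop it was called higher under all of the other 19 alternative settings. AT1G20691, opposite a gene described as chromatin-binding, was at log2 0.86 in hop and 0.48 in wt, and at -0.038 in hop scaled by total fragments alone, or 0.87 relative to the median of all genes there. AT5G15022 had 6 fragments in hop heat and 1 in hop control, a ratio of 10.3 with a 95% counting interval of 1.24 to 472.

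Among the 10 NATs called in neither genotype, AT2G31902 opposite the myosin gene XI-F averaged 61.3 ± 4.55 in hop heat and 65.6 ± 11.7 in wt heat, beside 79.3 ± 10.4 in hop control and 82.1 ± 9.0 in wt control (SD, n = 3 each). AT4G36808, the only NAT facing a gene of the chloroplast class (GGPPS1, which makes the geranylgeranyl precursor of chlorophyll and carotenoids), averaged 11.8 ± 2.65 in hop heat and 15.7 ± 2.13 in wt heat, beside 19.8 ± 7.96 in hop control and 21.7 ± 3.07 in wt control, with log2 fold changes of -0.66 in hop (limma adjusted p = 0.0654) and -0.44 in wt (adjusted p = 0.21). GGPPS1 itself fell in both genotypes (log2 -0.96 in hop and -0.64 in wt). AT3G59068 averaged 26.7 and AT4G27852 13.3 normalized fragments over the 12 libraries, and the remaining 6 of the 10 averaged below 10.

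Each NAT was then set beside the gene it faces. In 36 overlapping pairs both members were tested. In hop, both fell in 10 pairs, both rose in 3, the NAT fell while the partner rose in 1, and the NAT rose while the partner fell in 2 (AT5G45472 and AT4G39838). In wt, both fell in 10 pairs, both rose in 2, the NAT fell while the partner rose in 1, and the NAT rose while the partner fell in 1. The NAT alone was called in 11 pairs in each genotype and the partner alone in 6 pairs in hop and 7 in wt, with 3 pairs in hop and 4 in wt in which neither was called. Some of these partners rested on few fragments over the 12 libraries. Where both fell, they included AT3G57970 (8 fragments) in hop, and AT1G44120 (14) and AT4G09430 (22) in wt. Where the NAT alone was called, they included AT1G20690 (3) in hop and AT5G01540 (39) in both genotypes. An uncalled partner at such levels is not shown to be unchanged. Falls were common among the NATs and among the partners taken singly. Whether the strands of a locus changed together more often than those falls alone would give was not tested. The 42 tested genes that a NAT description names were also counted, beyond these pairs. They include GDPD5, AT4G38930 and AT4G37550, which do not overlap their NAT in TAIR10.1, and SERK1 and AT5G45480, whose NATs were at 0. Of these 42 partner genes, 5 were called higher and 21 lower in hop (61.9% called, beside 68.5% of all tested genes), with a median log2 fold change of -0.62. In wt 4 were higher and 21 lower (59.5%, beside 69% of all tested genes), with a median of -0.64.

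**Figure D2:**
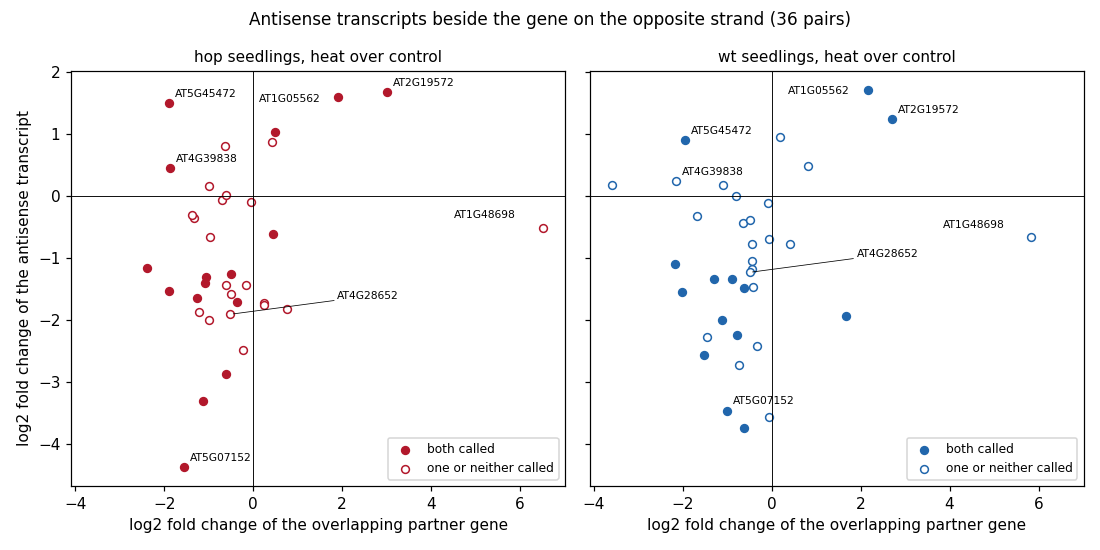
Log2 fold change of heat over control for the NAT (vertical axis) against that of the overlapping partner gene (horizontal axis) in the 36 pairs with both tested, in hop on the left and in wt on the right; filled points have limma's adjusted p under 0.05 for both. AT2G19572 and AT1G05562 lie at the upper right, AT5G45472 at the upper left, and AT1G48698 at the far right, below 0 on the vertical axis and not called.

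In the 2 pairs named at the upper right, NAT and gene both rose in both genotypes, with the antisense percentage of the gene's fragments lower under heat than at control. In hop another pair, AT1G06002 and UGT89C1, was also called higher on both strands. There the percentage was higher under heat, at 64.3% in hop heat and 76.5% in wt heat, beside 43.7% in hop control and 44.7% in wt control. CDA1 averaged 3955 ± 431 in hop heat and 2766 ± 195 in wt heat, beside 490.4 ± 53 in hop control and 423 ± 21.5 in wt control (SD, n = 3 each), a rise of log2 3.01 in hop and 2.71 in wt. AT2G19572 fragments, with no correction for length, equalled 7.77% of CDA1 fragments in hop heat and 8.08% in wt heat, compared with 19.9% in hop control and 22.3% in wt control. UGT75B1 averaged 5554 ± 683 in hop heat and 5602 ± 623 in wt heat, beside 1469.9 ± 83.6 in hop control and 1251 ± 89.1 in wt control, and AT1G05562 equalled 9.21% of it in hop heat and 8.49% in wt heat, beside 11.6% in hop control and 11.4% in wt control.

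At AT5G45470 the strands moved in opposite directions in both genotypes. The gene had 229, 209 and 212 normalized fragments in hop heat and 176, 134 and 171 in wt heat, beside 724, 887 and 807 in hop control and 533, 711 and 614 in wt control, with log2 fold changes of -1.89 ± 0.13 in hop (SE; limma adjusted p = 4.66e-09) and -1.94 ± 0.13 in wt (adjusted p = 3.40e-09). Every heat library of the gene was below every control library, the reverse of its NAT. With no correction for length, AT5G45472 was 181% of AT5G45470 fragments in hop heat and 219% in wt heat. At control it was 17.8% in hop and 30.9% in wt. Its annotated exons hold 6741 bases, beside 3058 for AT5G45470, and 45.3% of them face exons of that gene. These percentages therefore do not show which strand was higher per base. Per kilobase of annotated exon, AT5G45472 averaged below AT5G45470 in each group, though only by little in wt heat.

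At AT4G39840, a gene of unknown function, the order of the strands in fragments turned between heat and control. Its annotated exons hold 1914 bases, beside 2077 for its NAT AT4G39838. This gene had 98.1, 113 and 128 in hop heat and 111, 106 and 125 in wt heat, beside 423, 504 and 333 in hop control and 453, 632 and 464 in wt control, with log2 fold changes of -1.87 in hop and -2.15 in wt. AT4G39838 was 145% of its fragments in hop heat and 149.9% in wt heat, compared with 28.3% in hop control and 28.1% in wt control. Within a library this ratio does not depend on the scaling.

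In 2 pairs a gene was higher under heat while its NAT was lower, each called in 1 genotype. ARO3 averaged 145 ± 26.7 in hop heat and 127 ± 22.5 in wt heat, beside 106 ± 16.4 in hop control and 94.1 ± 9.92 in wt control, with log2 fold changes of 0.45 in hop (limma adjusted p = 0.0389) and 0.42 in wt (adjusted p = 0.0508). AT4G28160 averaged 20.9 ± 11.4 in hop heat and 27 ± 9.92 in wt heat, beside 10.7 ± 3.05 in hop control and 7.61 ± 2.57 in wt control, with log2 fold changes of 0.76 in hop (adjusted p = 0.142) and 1.68 in wt (adjusted p = 0.0035, limma).

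The largest change of a partner gene left its NAT uncalled. AT1G48700, described as a 2-oxoglutarate and iron dependent oxygenase, had 869, 827 and 942 in hop heat and 697, 677 and 733 in wt heat, beside 5.12, 12.7 and 9.75 in hop control and 9.13, 9.83 and 15.8 in wt control, and rose by log2 6.51 ± 0.25 in hop (SE; limma adjusted p = 4.32e-12) and 5.84 ± 0.25 in wt (adjusted p = 1.64e-11). AT1G48698 had 6.63, 2.9 and 15.5 in hop heat and 6.61, 4.96 and 9.23 in wt heat, beside 10.2, 8.49 and 12.3 in hop control and 7.3, 12.9 and 15 in wt control, and was not called (limma log2 -0.51, adjusted p = 0.339 in hop, and -0.67, adjusted p = 0.213 in wt). Without hop heat replicate 3 its log2 fold change in hop was -1.04 and was called lower (limma adjusted p = 0.0446). Antisense fragments equalled 0.948% of sense fragments in hop heat and 0.988% in wt heat, compared with 113% in hop control and 102% in wt control. How many of the antisense fragments under heat were sense fragments assigned to the wrong strand was not tested. The stretch of AT1G48698 that faces coding bases 58 onward of AT1G48700 follows, from RefSeq TAIR10.1, as an example of the sequence the 2 strands share.
AT1G48698, opposite AT1G48700, chr1:18012641-18012700, plus strand: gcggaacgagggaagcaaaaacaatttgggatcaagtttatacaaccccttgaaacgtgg

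**Figure D3:**
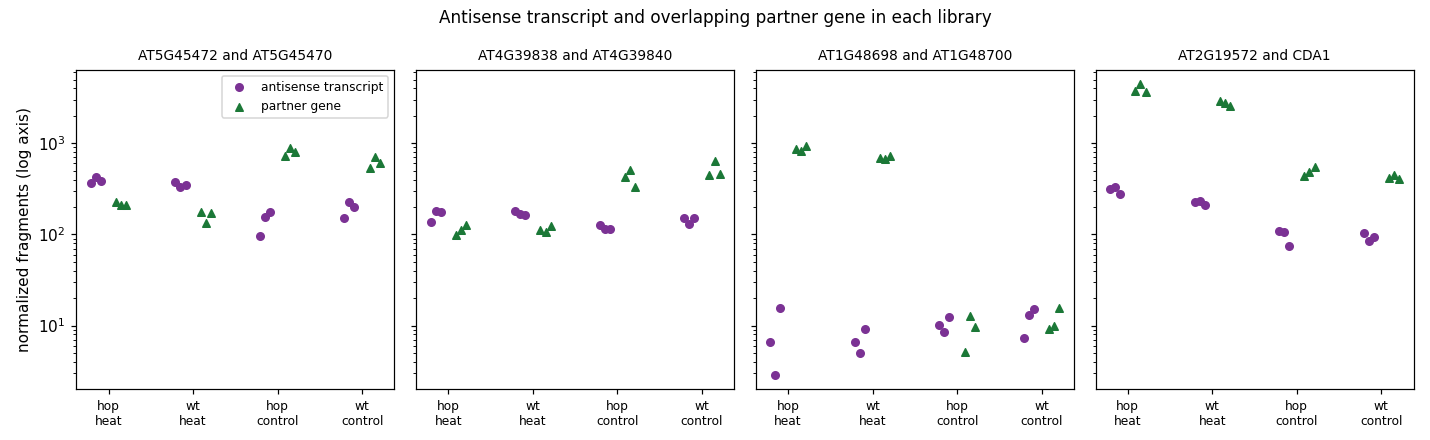
Normalized fragments in each of the 12 libraries, on a log axis, for 4 NATs (circles) and their partner genes (triangles), with the groups hop heat, wt heat, hop control and wt control from left to right. The order of circles and triangles turns between heat and control at AT5G45472 and AT4G39838, with no correction for the length of either gene. Per kilobase of annotated exon, AT5G45472 averaged below its partner in each group. AT1G48700 is far higher under heat while AT1G48698 was not called, and CDA1 and AT2G19572 are both higher under heat.

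Per kilobase of annotated exon, the NAT stood above the gene it faces in 16 of the 41 overlapping pairs in hop heat and 19 in wt heat, beside 19 in hop control and 20 in wt control. Among these were NATs whose partner had few or no fragments. AT1G44125 averaged 9.56 ± 1.96 normalized fragments per kb in hop heat and 9.47 ± 0.437 in wt heat, beside 25.8 ± 2.12 in hop control and 24.2 ± 2.25 in wt control (SD, n = 3 each), while its partner AT1G44120, an armadillo repeat gene, reached at most 0.283 in any group. AT3G59068, AT1G20691, AT3G57965 and AT4G26582 likewise faced genes averaging under 2 normalized fragments per kb in each group. At the other extreme, AT5G42092 was 0.203% to 0.376% of the fragments of AT5G42090 across the 4 group means, and AT2G35859 was 0.922% to 1.18% of those of FLA16, a fasciclin-like arabinogalactan protein gene. How many fragments at such low percentages were assigned to the wrong strand was not tested.

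Without heat, no NAT was called between hop and wt, where few genes were. Of the 42 tested, 0 were called by limma and 5 had an unadjusted p under 0.05, where limma called 0.831% of all tested genes (0.344% higher and 0.487% lower). Both edgeR, which called 1.28% of all genes there, and DESeq2, which called 1.96%, also called 0 NATs. Replicates of hop and wt did not overlap for 11 of the 42 NATs, beside 17.7% of all tested genes. The median log2 difference of the NATs was -0.06.

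Under heat, 2 NATs were lower and 2 higher in hop than in wt, or 9.52% of the 42, beside 8.62% of all tested genes (3.73% higher and 4.89% lower). With edgeR, 2 NATs were lower and 0 higher (7.54% of all genes called), and with DESeq2, 2 were lower and 1 higher, AT2G19572 (10.8%). Replicates of hop and wt under heat did not overlap for 9 of the 42, beside 25.9% of all tested genes. AT4G28652, which faces PXL2, had 122, 100.1 and 114 normalized fragments in hop heat and 209, 217 and 231 in wt heat, with 354, 433 and 489 in hop control and 477, 539 and 532 in wt control. The hop heat libraries were all below the wt heat libraries, and the control groups overlapped, although each hop control library lay below the wt control library of the same number. The log2 difference was -0.96 ± 0.13 under heat (SE; limma adjusted p = 0.000592) and -0.29 ± 0.13 at control (adjusted p = 0.434, and 0.342 with the replicate number as a block).

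AT2G37362, which faces ABCG2, had 23.9, 27.6 and 40.3 in hop heat and 64.8, 62.9 and 79.1 in wt heat, with 106, 103 and 102 in hop control and 107, 107 and 121 in wt control. Again hop heat lay wholly below wt heat, with a log2 difference of -1.17 ± 0.19 (SE; limma adjusted p = 0.00215), while at control the difference was -0.10 ± 0.19 (adjusted p = 0.951). Both differences under heat were called under all 20 alternative settings, and in the authors' deposited table they were -0.96 (adjusted p = 1.62e-06) for AT4G28652 and -1.13 (adjusted p = 0.000248) for AT2G37362.

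The genes facing them were not called between the genotypes by the same test. PXL2 averaged 48.7 ± 15.7 in hop heat and 52.4 ± 10.7 in wt heat (SD, n = 3 each; log2 difference -0.13 ± 0.27, SE, limma adjusted p = 0.813), and ABCG2 averaged 346 ± 53.1 in hop heat and 281 ± 45.5 in wt heat (0.30 ± 0.14, adjusted p = 0.188). AT4G28652 had more fragments than the gene it faces, at 229.8% of PXL2 fragments in hop heat and 417% in wt heat, beside 604% in hop control and 697% in wt control. AT2G37362 was 8.82% of ABCG2 fragments in hop heat and 24.5% in wt heat, beside 35.5% in hop control and 38.4% in wt control. Per kilobase, AT4G28652 was at 40.8 ± 4.01 in hop heat and 79.7 ± 4.02 in wt heat, and PXL2 was at 13.9 ± 4.49 in hop heat and 15 ± 3.06 in wt heat.

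The 2 NATs higher in hop under heat rest on few fragments. AT4G37553, which faces the acetamidase/formamidase gene AT4G37560, had 2.65, 4.35 and 3.1 in hop heat and 0, 0 and 1.32 in wt heat (limma adjusted p = 0.018), or 8 fragments in hop heat and 1 in wt heat, a ratio of 7.03 with an exact 95% counting interval of 0.942 to 312. AT2G05914, which faces AT2G05915, a gene at 0 in all libraries, had 5.3, 4.35 and 3.1 in hop heat and 0, 1.65 and 1.32 in wt heat (log2 1.5, adjusted p = 0.0422, limma), or 10 fragments in hop heat and 2 in wt heat, a ratio of 4.39 with an exact 95% counting interval of 0.936 to 41.2. At control AT2G05914 had 7.68, 7.78 and 4.55 in hop and 1.83, 2.46 and 2.15 in wt, also without overlap. This was a log2 difference of 1.26 that was not called (limma adjusted p = 0.252). AT4G37553 averaged 13.3 ± 1.84 in hop control and 15.2 ± 4.64 in wt control (SD, n = 3 each), and was called under 12 and AT2G05914 under 7 of the 19 alternative settings that tested them, and both intervals include 1.

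**Figure D4:**
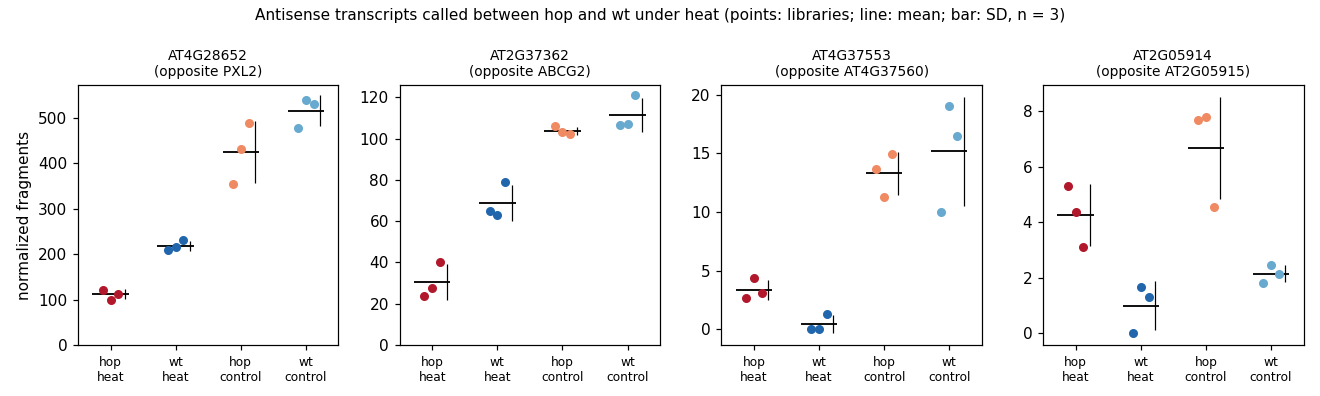
Normalized fragments in each library for the 4 NATs called between hop and wt under heat, with the groups hop heat, wt heat, hop control and wt control from left to right, the horizontal line at the mean and the vertical bar spanning the SD (n = 3). For AT4G28652 and AT2G37362 the hop heat points lie below the wt heat points with the control groups near each other, and the 2 panels on the right stay below 20 normalized fragments.

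The heat response itself differed between hop and wt for none of the 42 NATs by limma, with 5 at an unadjusted p under 0.05, where 0.0504% of all tested genes were called (0.0126% higher and 0.0378% lower). Neither edgeR (0.143% of all genes called) nor DESeq2 (0.895%) called a NAT, that is, 0 each. The difference of responses was log2 -0.68 ± 0.18 for AT4G28652 (SE; adjusted p = 0.174, limma) and -1.07 ± 0.27 for AT2G37362 (adjusted p = 0.149). Without hop heat replicate 3, the highest of its group, that of AT2G37362 became -1.28 and was called (adjusted p = 0.0344, limma). AT2G19572 was higher in hop heat than in wt heat in all 3 libraries, by log2 0.46 ± 0.15, and missed the threshold (limma adjusted p = 0.0754), while DESeq2 called it (adjusted p = 0.0460); its partner CDA1 was higher in hop under heat by 0.51 ± 0.10 (limma adjusted p = 0.00781).

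Genes that make, process or degrade antisense and small RNAs were called about as often as genes at large, but more of them fell than rose. Of all tested genes, 35.2% were called lower and 33.3% higher in hop, and 35.8% lower and 33.2% higher in wt. Of 33 tested, 19 fell and 5 rose in hop (72.7% called, median log2 fold change -0.59), and 20 fell and 6 rose in wt (78.8%, median -0.46), beside 68.5% of all genes in hop and 69% in wt. Among those that fell were DCL3, a Dicer that makes small RNAs of silenced chromatin (-1.69 in hop and -1.92 in wt), RDR6, an RNA polymerase that copies RNA into double strands (-1.33 in hop and -1.47 in wt), and HEN2, a helicase of the nuclear exosome, which degrades non-coding RNA (-1.31 in hop and -1.30 in wt). Among those that rose were FLD, a histone demethylase homologue of the FLC antisense pathway (2.13 in hop and 2.16 in wt), SERRATE, of microRNA processing (1.45 in hop and 1.57 in wt), and the Argonaute AGO2 (1.64 in hop and 1.03 in wt).

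Between the genotypes, 0 of the 33 were called at control by limma, with 3 at an unadjusted p under 0.05, and 6 under heat (18.2%, beside 8.62% of all tested genes). SGS3, the partner protein of RDR6, averaged 53.2 ± 5.81 in hop heat and 98.9 ± 24.8 in wt heat (log2 -0.85, limma adjusted p = 0.0147), and 125 ± 10.4 in hop control and 229 ± 44.2 in wt control (-0.85, adjusted p = 0.0589; SD, n = 3 each). Also lower in hop under heat were FY, a 3′ end processing factor (-0.62, adjusted p = 0.0145), and RRP6L1, an exosome-linked RNase (-0.69, adjusted p = 0.0232). DCL4 (0.54), RDR1 (0.90) and AGO2 (0.38) were higher.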

How the data were processed

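RNA of whole seedlings (Trizol and RNeasy, stranded mRNA library kit, per the labels' protocols) was sequenced in 12 libraries, 3 in each of 4 groups taken from the labels. The submitters' processing notes name TopHat2 2.1.0, HTSeq and DESeq2 1.1.14, in no stated role. Neither the genome build nor the counting settings are given in the sources used here. Deposited values are a signal, fragments per gene divided by size factors by the authors. In every library 100% of them came out as whole fragments at a tolerance of 0.01, which gave the totals per library. The deposited table also holds the authors' log2 fold changes and adjusted p-values, quoted only where named; 0 columns of per-sample values were left unused.

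The 23827 genes that reached a value of 1 in 3 or more libraries were tested with limma 3.58.1 (R 4.3.3; trend and robust settings) on log2(value + 1), in a model of 4 group means that share 1 estimate of the spread. Fold changes on this scale understate the change of low genes. P-values were adjusted over all tested genes (Benjamini-Hochberg), and a call is an adjusted p under 0.05. The same call rule was run with edgeR 4.0.16 (quasi-likelihood) and DESeq2 1.42.0 on the recovered fragments, which called 16359 and 15721 genes for heat in hop, 16197 and 15721 for heat in wt. Other alternatives were scaling by total fragments, other pseudocounts and filters, each library left out and the replicate number as a block. The limma script was tested on simulated data. Counting intervals are exact binomial at 95%, and fragments without molecular identifiers are not independent molecules, so intervals and floors cover counting error only.

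The NATs, partner classes and lists were chosen with earlier results of these data known. NATs named in the heat comparisons are the 8 largest called rises and falls whose log2 fold change was 1 or more in size, with a mean value of 10 or more and no overlap between replicates, together with those called between genotypes and the 8 with the highest mean; the others named were chosen after their values were seen. Same-numbered hop control and wt control libraries deviated together from their group means (r = 0.54, 0.33 and 0.35 across 19633 genes, which are not independent replicates), so at control the numbers pair the libraries. The values reported come from the fit without the block, and the fit with the block also called 0 NATs at control. That block is shared over all 12 libraries, although the numbers did not pair heat libraries with control libraries. Its 0 calls therefore do not show what pairing the control libraries alone would give, which was not tested. No correlation of a NAT with its partner over libraries is given, because heat and control libraries form separate clusters.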

Additional observations from a re-analysis of the deposited data

How the results depend on the processing

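The 23 NATs called lower under heat in both genotypes were called lower under each of the 20 alternatives that tested them. Scaling by total fragments alone put the median log2 fold change of all genes at -0.91 in hop and -0.88 in wt. It gave 4 rises in hop, against 7 by the deposited scaling, and 2 in wt, against 4, and 31 falls in each genotype, against 24. With that common shift, log2 fold changes were negative for AT1G20691 in hop (-0.038), AT3G59068 in wt (-0.84) and AT4G39838 (-0.47 in hop and -0.64 in wt), which relative to the median of all genes are 0.87, 0.041, 0.44 and 0.25. The count of NATs called higher in hop than in wt under heat was 2, and 0 with edgeR, 1 with DESeq2 (AT2G19572, which is neither of those 2), 0 with scaling by total fragments, 1 with a pseudocount of 5 and 0 with a mean value of at least 10. With 1 library left out, that count was 0 to 3, the count lower in hop under heat was 2 to 4 (4 without hop heat replicate 2 or hop heat replicate 3), and the count for the difference of responses was 0 to 1 lower in hop. Falls under heat then numbered 23 to 25 in each genotype, rises 7 in hop and 4 in wt.

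Single calls that were lost in some settings include AT2G04852 in hop (7 of 19 alternatives), AT3G05932 in wt (5 of 20) and AT5G15022 in hop (DESeq2, adjusted p = 0.0545); the cause was not tested. Over all genes, 305 were called between hop and wt at control by edgeR and 440 by DESeq2, against 198 by limma, and 34 by edgeR and 176 by DESeq2 for the difference of responses, against 12. Partner genes called higher under heat in hop numbered 3 with edgeR and 3 with scaling by total fragments, against 5, and that scaling called 34 partners lower in each genotype, against 21. With the replicate block, 7 NATs rose and 23 fell in hop, 4 rose and 24 fell in wt, 3 were higher and 3 lower in hop than in wt under heat, where AT2G19572 was called (adjusted p = 0.0454, limma), and 0 differed in response; the numbers did not pair the libraries in these comparisons (correlations of 0.14, -0.06 and 0.25 for heat in hop, -0.06, -0.27 and 0.13 for heat in wt, and 0.06, 0.20 and 0.34 between genotypes under heat). Of the 42 NATs, 10 averaged below 10 normalized fragments, where counting error limits any call.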
